A study of Mus musculus with 3 samples.

Results

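The 32 genes described here encode the proteins of desmosomes, adherens junctions, tight junctions and gap junctions. They were chosen by symbol as proteins of these junctions, with no threshold on a measured level but with earlier results of these data known. The counts of called members below are therefore descriptive. All 32 genes are among the 28693 genes of the deposited tables. Their unique molecular identifiers (UMIs, one per captured RNA molecule) were summed over barcodes that passed 2 filters, a floor of 200 genes and a ceiling of 10% of UMIs from mitochondrial genes.

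The cells came from abdominal skin dermis of mice (C57BL/6, 8 to 12 weeks old) that all had the genotype Col1a2creERT2; R26H2B EGFP, at 3 stages with 1 library each: non-pregnant (NP), gestation day 16 (dpc16) and post partum day 42 (dpp42). All mice carried the tamoxifen-inducible Cre recombinase driven by a collagen promoter and the histone-EGFP reporter. The dpc16 and dpp42 mice received tamoxifen in pregnancy, and the NP mice received it for 3 days and were sampled 48 days later. The epidermis was loosened with 0.25% trypsin (30 min), and the dermal suspension passed filters of 40 and 20 µm before capture on a Chromium 3' version 2 system. The number of mice per library is not given in the sources used here. With 1 library per stage there is no replicate error, so no test between stages was possible, and every interval covers counting error only.

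Cells joined to one another by desmosomes resist pulling, because desmosomal cadherins (desmogleins and desmocollins) link across the gap between cells and bind plakoglobin, plakophilins and desmoplakin, which anchor keratin filaments. Adherens junctions couple classical cadherins through catenins to actin. Tight junctions, built from claudins and occludin, seal the gap between cells and in epidermis lie in the granular layer, and gap junctions, built from connexins, let small molecules pass from cell to cell. As keratinocytes move from the basal through the spinous to the granular layer they exchange one set of these proteins for another, and endothelium carries a set of its own.

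For 5 members that the results below follow by layer or vessel type, the bases just upstream of the gene's start are shown, from RefSeq on GRCm38.p6 and written 5' to 3' on the gene's strand. These are claudin 4 and connexin 31.1 (Gjb5), higher in granular-like than basal-like cells, claudin 1, connexin 43 (Gja1), which is lower there, and claudin 5 of endothelium. RefSeq windows were given for 16 of the 32 members. Capitals mark matches, on either strand, to the AP-1 site TGAGTCA or the GC box GGGCGG.
Cldn4, chr5:134946935-134947184, minus strand: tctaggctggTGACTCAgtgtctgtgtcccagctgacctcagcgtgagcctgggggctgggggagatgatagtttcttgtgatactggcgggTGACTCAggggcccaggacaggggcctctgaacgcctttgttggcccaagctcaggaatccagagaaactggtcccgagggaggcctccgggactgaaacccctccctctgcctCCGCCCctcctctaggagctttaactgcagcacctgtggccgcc
Gjb5, chr4:127358182-127358414, minus strand: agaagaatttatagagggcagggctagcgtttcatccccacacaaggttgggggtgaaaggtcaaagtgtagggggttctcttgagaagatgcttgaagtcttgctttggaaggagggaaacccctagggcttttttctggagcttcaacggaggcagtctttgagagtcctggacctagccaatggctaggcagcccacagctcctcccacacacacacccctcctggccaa
Gja1, chr10:56377050-56377299, plus strand: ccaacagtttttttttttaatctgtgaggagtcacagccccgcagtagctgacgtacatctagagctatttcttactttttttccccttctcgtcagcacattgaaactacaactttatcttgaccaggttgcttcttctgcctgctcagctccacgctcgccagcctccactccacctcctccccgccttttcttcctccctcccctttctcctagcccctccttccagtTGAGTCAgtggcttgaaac
Cldn1, chr16:26371842-26372089, minus strand: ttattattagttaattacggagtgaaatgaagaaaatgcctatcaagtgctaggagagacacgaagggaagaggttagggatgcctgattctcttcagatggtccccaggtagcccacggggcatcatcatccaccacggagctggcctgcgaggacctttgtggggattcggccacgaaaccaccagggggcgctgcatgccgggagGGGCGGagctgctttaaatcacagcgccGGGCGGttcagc
Cldn5, chr16:18776597-18776846, plus strand: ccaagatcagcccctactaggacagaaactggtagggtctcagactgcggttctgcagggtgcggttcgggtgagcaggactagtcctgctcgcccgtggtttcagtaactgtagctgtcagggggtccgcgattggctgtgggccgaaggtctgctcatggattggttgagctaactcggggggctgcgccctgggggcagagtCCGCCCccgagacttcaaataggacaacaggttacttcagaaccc
The AP-1 letters occurred 2 times upstream of Cldn4, at 233 and 151 bases from the window's end, and 1 time upstream of Gja1, at 12 bases. They occur in 4.46% of all 32851 upstream windows of 250 bases. GC box letters occurred 2 times in the Cldn1 window, 1 time in the Cldn4 and Cldn5 windows and in neither connexin window, against 32.7% of all windows. A match describes the letters and is no evidence of binding.

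After filtering, 1289 NP, 3652 dpc16 and 1081 dpp42 cells remained, beside 1289, 3650 and 1081 stated by the submitters. Median depth was 3119, 4300.5 and 3252 UMIs per cell, and the smallest cell kept held 1916, 2494 and 1908 UMIs. Barcodes shared between libraries numbered 6, 1 and 4 for the 3 pairs. Although the tissue is labelled dermis, keratinocyte-like cells, named by their markers, numbered 949 of the NP cells (73.6%), 1390 at dpc16 (38.1%) and 665 at dpp42 (61.5%). Fibroblast-like cells numbered 98, 1082 and 112. Dsg1a in fibroblast-like cells, which should lack desmogleins, read 47.3, 6.05 and 23.9 CPM (UMIs of the gene scaled to 1000000 UMIs of the class) in NP, dpc16 and dpp42. Levels below are CPM of the UMIs summed over a class, always in the order NP, dpc16, dpp42, and because the 3' tag count is not scaled by length they are compared within a gene only.

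The first comparison asked how the module is arranged through the epidermal layers. Basal-like, spinous-like and granular-like cells were separated by clustering from which the 32 members and the other junction genes had been left out. A gene was called when its ratio was at least 1.5-fold with a 95% interval excluding 1, among genes with at least 10 CPM on 1 side and 20 UMIs in all. From basal-like to granular-like cells 17 members rose and 4 fell of 25 measured in NP, against 19% and 17.4% of all measured genes. At dpc16 the counts were 17 and 4 of 26 (background 20.9% and 24.2%), and at dpp42 15 and 2 of 23 (background 17.6% and 16.5%). One of these 15 is Cldn5, an endothelial claudin whose granular UMIs at dpp42 came from 2 cells. The median log2 difference was 1.36, 1.43 and 1.24 for the members measured and -0.03, -0.13 and -0.05 for all genes. With cells thinned to 1000 UMIs, 16, 16 and 12 members were still measured. Of these, 12 were called higher and 1 lower in NP (background 18.2% and 15.9%). The counts were 10 and 0 at dpc16 (15.6% and 19.1%) and 7 and 1 at dpp42 (20.5% and 19.1%). The thinned medians were 1.48, 1.78 and 1.15 for the members measured and -0.03, -0.18 and -0.07 for all genes.

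Most of the increase lay between the basal and spinous layers for some members and between the spinous and granular layers for others. From basal-like to spinous-like cells 14 of 23 members rose in NP (background 11.3%), 13 of 23 at dpc16 (9.55%) and 12 of 23 at dpp42 (8.76%), and 3 fell in each (8.44%, 13.5% and 8.11%). From spinous-like to granular-like cells 9 of 25, 12 of 26 and 9 of 24 rose (10.8%, 16.1% and 11.4%) and 0, 2 and 3 fell (11.6%, 13.5% and 11.8%). Dsp, Ppl, Evpl, Cldn4 and Gjb5 rose at both steps in all 3 libraries, whereas Dsc3, Pkp1, Perp and Cdh1 rose at the first step and were not called at the second in any.

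Among the desmosomal cadherins, Dsg1a (desmoglein 1 alpha, a suprabasal desmoglein) read 235, 135 and 267 CPM in basal-like, 973, 630 and 1017 in spinous-like and 1584, 1108 and 1416 in granular-like cells. The granular level was 6.74-fold the basal level in NP (95% interval 5.64 to 8.12), 8.18-fold at dpc16 (6.67 to 10.1) and 5.3-fold at dpp42 (4.22 to 6.74). With each cell thinned to 1000 UMIs, which left out no cell, Dsg1a was seen in 86.7%, 70% and 86% of granular-like cells (98.8%, 100% and 100% before thinning), against 3.06%, 0.37% and 1.79% of fibroblast-like cells. Median depth was 12305, 20607.5 and 15586 UMIs in the granular-like and 2650.5, 4088.5 and 2420 in the fibroblast-like cells. Dsg1a shares near-identical copies, Dsg1b and Dsg1c, so its reads may be split between them.

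Dsc1 (desmocollin 1, the upper-layer desmocollin) had no UMI in basal-like cells of any library, and a count of 0 allows 5.42, 4.07 and 10.1 CPM there. It read 15.1, 2.72 and 15.6 CPM in spinous-like and 137, 28.6 and 136 CPM in granular-like cells, at least 25.3-fold, 7.03-fold and 13.4-fold above that limit. The granular-like level was the lowest at dpc16, while the granular over spinous ratio was 9.09 (5.76 to 15.1), 10.5 (3.76 to 40.7) and 8.74 (5.03 to 16.4). Dsc3, the desmocollin of lower layers, rose too, from 448, 219 and 484 CPM in basal-like to 1109, 580 and 1041 in spinous-like cells, and stood at 1151, 613 and 913 in granular-like cells. With cells classed by their own marker UMIs in place of clusters, the granular over basal direction of Dsc3 turned in NP and dpp42 (log2 -0.19 and -0.09). Those 2 values rest on 14 and 21 granular-like cells.

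The 2 other desmogleins went the opposite way. Dsg3 (the basal desmoglein, the target of pemphigus vulgaris antibodies) read 79.5, 21.7 and 57.5 CPM in basal-like and 13.1, 8.98 and 7.28 in granular-like cells. This was 6.08-fold lower in NP (3.36 to 11.5), 2.41-fold at dpc16 (1.05 to 5.75) and 7.89-fold at dpp42 (3.11 to 22.5). Dsg2 read 50.6, 32.5 and 47.3 CPM in basal-like and 9, 4.9 and 4.16 in granular-like cells, and the fall was called in NP and dpc16 and not measured at dpp42.

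Of the 7 other desmosomal genes, those of the plaque and the membrane protein gene Perp, all but Pkp3 rose in all 3 libraries. Dsp (desmoplakin, the keratin anchor) read 717, 492 and 676 CPM in basal-like and 2400, 1863 and 2297 in granular-like cells, a rise of 3.35-fold, 3.79-fold and 3.4-fold. Jup (plakoglobin) rose 3.77-fold, 4-fold and 2.99-fold, Pkp1 (plakophilin 1) 3.02-fold, 3.54-fold and 1.98-fold, and Perp (a tetraspan membrane protein of desmosomes) 2.46-fold, 2.35-fold and 2.46-fold. Ppl and Evpl, periplakin and envoplakin of the cornified envelope scaffold, rose more: Evpl read 19.9, 23 and 37.2 CPM in basal-like and 219, 174 and 194 in granular-like cells. The plakophilin Pkp3 was called higher in NP alone (1.81-fold, 1.39 to 2.39), with 0.927-fold at dpc16 and 1.44-fold at dpp42.

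In the adherens junction the 2 classical cadherins parted. Cdh1 (E-cadherin) read 161, 103 and 183 CPM in basal-like and 329, 269 and 280 in granular-like cells and was called higher in all 3 libraries. Cdh3 (P-cadherin) read 28.9, 36.6 and 37.2 CPM in basal-like and 9, 4.08 and 5.2 in granular-like cells. Its fall was called in NP and dpc16. The catenins Ctnna1 and Ctnnb1, which tie cadherins to actin, were called in neither direction, with ratios of 0.977, 0.893 and 1.13 for Ctnna1 and 1.15, 0.838 and 1.04 for Ctnnb1.

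Of the tight junction genes, Cldn4 (claudin 4) read 1.81, 16.3 and 6.76 CPM in basal-like, 78.5, 89.7 and 45.7 in spinous-like and 261, 437 and 264 in granular-like cells. The NP ratio of 144 (25.7 to 5720) rests on 1 basal UMI, and the ratios at dpc16 and dpp42 were 26.9 (15.3 to 52.3) and 39.1 (10.7 to 324). Thinned to 1000 UMIs, Cldn4 was seen in 18.1%, 30% and 10.5% of granular-like cells (84.3%, 93.3% and 77.2% before thinning), against 0%, 0.462% and 0% of fibroblast-like cells. Cldn1, the claudin whose loss breaks the mouse skin barrier, rose 3.45-fold, 2.5-fold and 2.39-fold from basal-like to granular-like cells. Ocln (occludin) read 3.61, 4.06 and 6.76 CPM in basal-like and 37.6, 35.1 and 31.2 in granular-like cells, also called in all 3. Tjp1 (ZO-1, the scaffold under the strands) was called in none, at 37.9, 20.3 and 13.5 CPM in basal-like and 38.4, 33.5 and 35.4 in granular-like cells.

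The connexins were layered in opposite orders. Gjb5 read 54.2, 33.9 and 20.3 CPM in basal-like, 121, 111 and 140 in spinous-like and 288, 216 and 215 in granular-like cells. Gja1 read 204, 149 and 227 CPM in basal-like, 127, 93.8 and 146 in spinous-like and 94.9, 56.4 and 65.5 in granular-like cells, which is 2.15-fold, 2.64-fold and 3.46-fold lower in granular-like than basal-like cells. Gjb2 (connexin 26) had no UMI in basal-like cells and read 35.2, 44.9 and 9.36 CPM in granular-like cells, at least 6.49-fold and 11.1-fold above the limit of a 0 count in NP and dpc16 and under it at dpp42. Of the remaining listed junction genes outside the module, 76 were present by their listed symbol. From basal-like to granular-like cells 21 of 35 measured rose and 6 fell in NP (background 19% and 17.4%). The counts were 21 and 6 of 35 at dpc16 (20.9% and 24.2%) and 16 and 5 of 31 at dpp42 (17.6% and 16.5%). The falls were near or under the shares of all genes. Ybx3, Cdsn and Pvrl4 rose in all 3 libraries, and Cdh13, Ctnnal1 and Marveld1 fell in all 3.

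**Figure D1:**
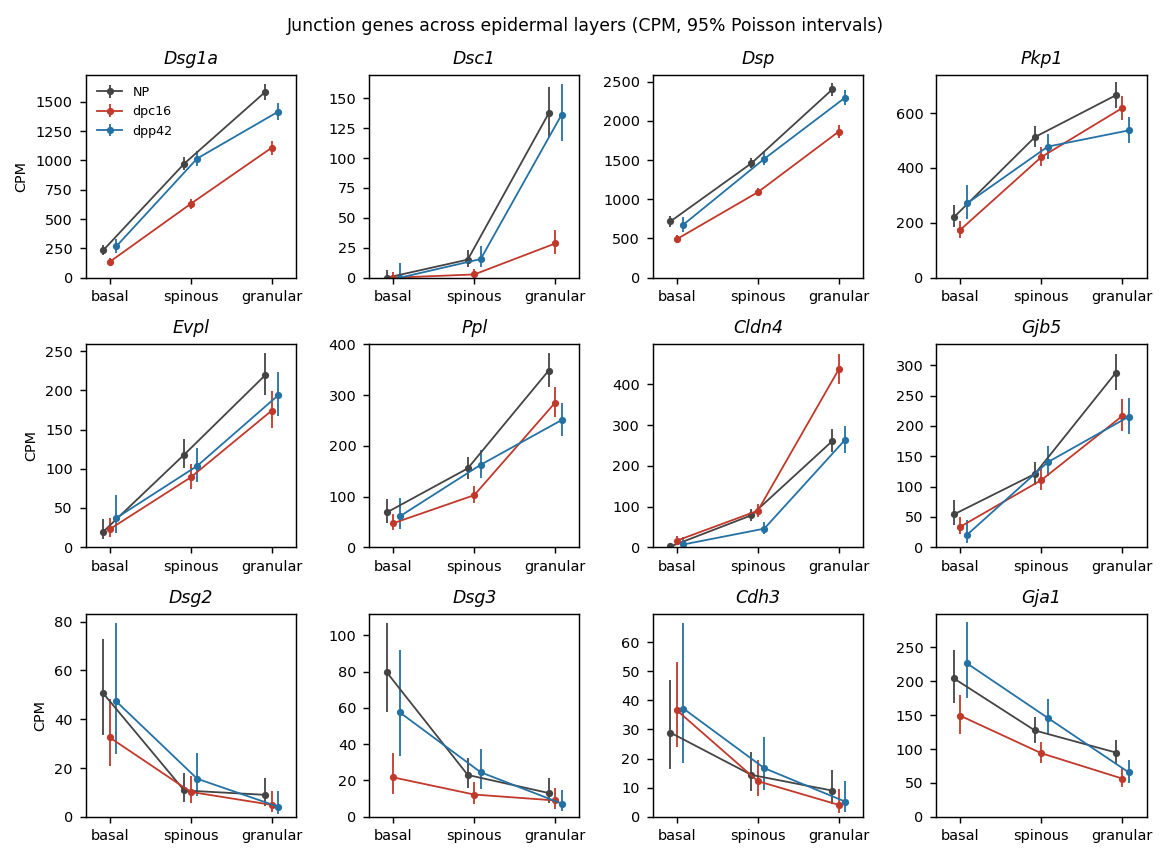
CPM of 12 junction genes (vertical axes, linear, each from 0) in basal-like, spinous-like and granular-like cells (horizontal axes) of the 3 libraries, with 95% Poisson intervals; points are class sums and lines join the layers of a library. The upper 2 rows hold genes that increase towards the granular layer and the lowest row those that decrease, with Dsc1 lowest at dpc16 (28.6 CPM in granular-like cells) and Cldn4 highest there (437 CPM).

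The second comparison was between stages, over all keratinocyte-like cells. At dpc16 against NP, 11 of 26 measured members fell and 1 rose, where 21.8% of all measured genes fell and 8.95% rose. The median log2 ratio was -0.36 for the members measured and -0.16 for all genes. At dpp42 against NP, none of 25 was called in either direction (background 4.82% higher and 3.08% lower), and the 25 ratios ran from 0.726 for Ppl to 1.35 for Gja1. At dpp42 against dpc16, 8 of 26 rose and 2 fell (background 22.4% and 8.23%). Centred on the median of all genes, the split was 3 higher and 9 lower at dpc16 against NP (background 13.7% and 14.8%) and 5 and 5 at dpp42 against dpc16 (14.1% and 13.5%). The comparisons share libraries, so the values are given side by side and are not independent of one another.

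The members that fell at dpc16 were mostly desmosomal. Dsg1a read 744, 298 and 629 CPM in NP, dpc16 and dpp42, 2.5-fold lower at dpc16 than in NP (2.38 to 2.63). Dsc1 read 39.5, 5.77 and 38 CPM, 6.85-fold lower (5.05 to 9.42), the largest fall of any measured member. Dsc3 read 774, 356 and 680 CPM, 2.17-fold lower (2.08 to 2.28), and Dsg3 28.7, 15.9 and 30.1 CPM, 1.8-fold lower (1.42 to 2.29). In each of these 4 cadherins the dpc16 library was the low one and NP and dpp42 lay within 1.18-fold of each other. The plaque genes Dsp (1.72-fold), Pkp1 (1.58-fold), Ppl (1.95-fold) and Evpl (1.9-fold) were also lower at dpc16, whereas Jup (1.31-fold lower), Pkp3 (1.23-fold lower) and Perp (ratio 1.01) were not called.

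Dsc2, the third desmocollin, moved against its neighbours. It read 8.06, 17.1 and 6.91 CPM, 2.12-fold higher at dpc16 than in NP (1.49 to 3.09) and 2.47-fold lower at dpp42 than at dpc16 (1.65 to 3.84). Dsc3, Dsc2, Dsc1, Dsg1a, Dsg3 and Dsg2 lie in that order along chromosome 18, from 19960930 to 20604521 on GRCm38 (GENCODE M21), so genes of 1 cluster were called in opposite directions. In a small group of keratinocyte-like cells led by inner-follicle keratins Dsc2 read 93.4 CPM at dpc16 and 31.2 at dpp42 (53 and 43 cells). That group had 0 Dsc2 UMIs from 4 cells in NP and 21 of the 163 at dpc16. Sebocyte-like cells held 18 of 39, 60 of 163 and 15 of 28 Dsc2 UMIs, at 27.1, 23.1 and 17.7 CPM. Within compartments, Dsc2 was called higher at dpc16 than in NP in granular-like cells only, of 3 where it was measured.

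Outside the desmosome, F11r (junctional adhesion molecule A, a tight junction adhesion receptor) read 76.9, 36.1 and 62.2 CPM, 2.13-fold lower at dpc16 than in NP (1.84 to 2.48). Gjb5 read 117, 53.3 and 86.4 CPM, 2.21-fold lower (1.95 to 2.49), and Ctnna1 158, 104 and 133 CPM, 1.51-fold lower (1.37 to 1.66). The claudins did not follow: Cldn1 read 161, 218 and 163 CPM and Cldn4 106, 126 and 86.9 CPM, with ratios of 1.35 and 1.19 at dpc16 over NP that miss the 1.5-fold size. Epcam (an adhesion protein that binds claudins) read 193, 255 and 177 CPM. Of the other junction genes, 2 rose and 9 fell of 37 measured at dpc16, near the shares of all genes (8.95% and 21.8%), the former Panx3 and Cldn8 and the latter including Ybx3, Amotl1, Lsr and Pvrl4.

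The make-up of the keratinocyte-like cells moved with these values. Spinous-like cells, high in Dsg1a and Dsc3, were 292, 160 and 135 of them, and the summed spinous marker list read 30328, 14538 and 28163 CPM. Granular-like cells held 1222887, 1224400 and 961174 of the 4835960, 9537324 and 4049432 UMIs of the keratinocyte-like class. They held 168, 35 and 131 of its 191, 55 and 154 Dsc1 UMIs. Sebocyte-like cells, low in most of the module, are part of the class and numbered 101, 314 and 104. Activated keratinocyte-like cells numbered 17, 134 and 8, and infundibulum-like cells 28, 146 and 23. Fibroblast markers read 117, 849 and 171 CPM in the keratinocyte-like class. The part of these differences in the result was not tested. With 6 compartments weighted equally, 5 of 26 measured members remained lower at dpc16 than in NP, near the 18.7% of all genes. These were Dsg1a, Dsg3, Dsc1, Dsc3 and F11r. Higher were 3 of 26, Dsc2, Cldn4 and Gjb2 (background 6.62%). Dsp, Pkp1, Ppl, Evpl, Ctnna1 and Gjb5 were no longer called under that weighting. Dsg1a, Dsc1 and Dsc3 were called lower in each of the 12 alternative settings tried, and Dsc2 higher in 11 of the 12.

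**Figure D2:**
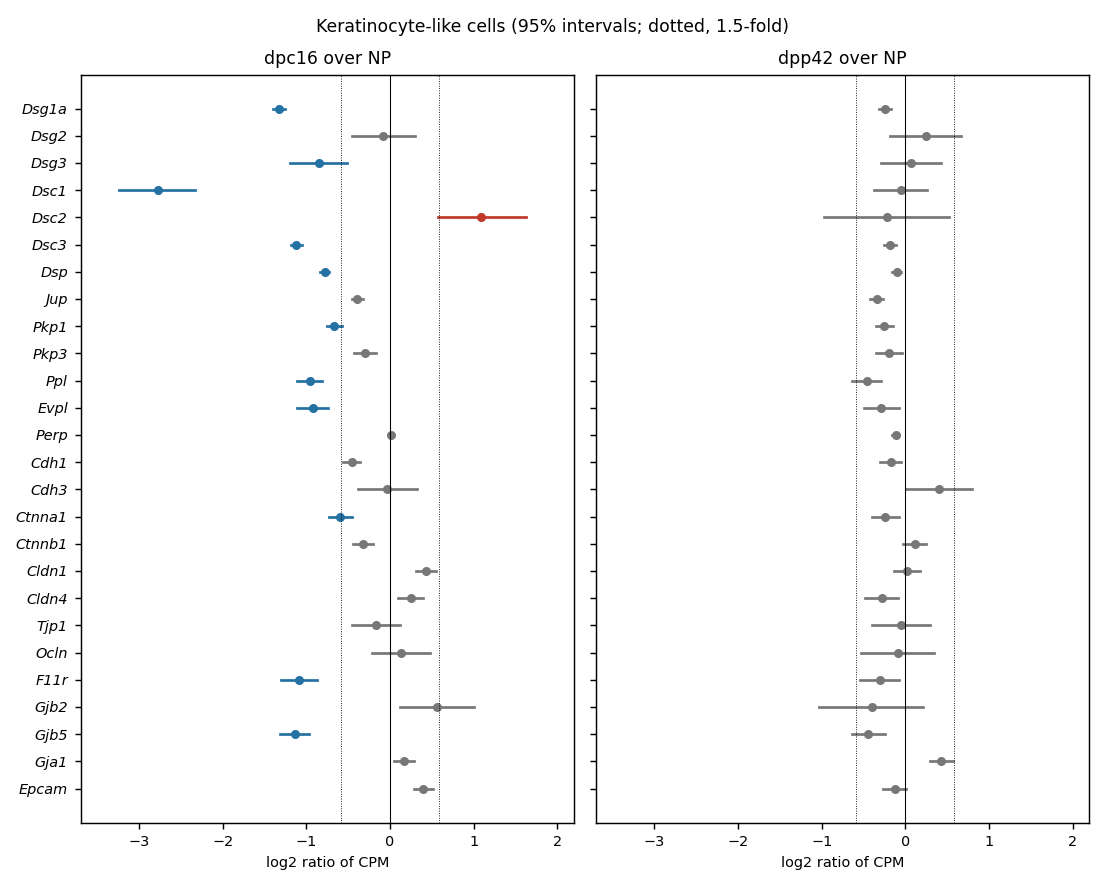
Log2 ratio of CPM (horizontal axis) of the 26 measured members in keratinocyte-like cells at dpc16 (left) and dpp42 (right) over NP, with 95% counting intervals; blue is called lower, red called higher, grey neither, and dotted lines mark 1.5-fold. In the left panel 11 members lie to the left and Dsc2 to the right, and in the right panel none is called.

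Lower desmosomal cadherins at dpc16 were also called within single compartments. Over basal-like, spinous-like, granular-like, cycling-like, bulge-like and sebocyte-like cells, 6 members were called lower at dpc16 in at least 3 compartments: Dsg1a, Dsg3, Dsc3, Cdh1, Ctnna1 and F11r. Of all genes measured in any compartment, 7.29% met that count, and no member was called higher in at least 3, against 2.42%. The shares in this paragraph include genes measured in fewer than 3 compartments, which could not meet the count. Dsg1a, Dsc3, Cdh1, Ctnna1 and F11r were measured in all 6 and Dsg3 in 5, so the shares are not a like-for-like background. At dpp42 against NP no member was called in at least 3 compartments in either direction (background 0.593% lower and 0.182% higher). At dpp42 against dpc16, Dsg1a, Dsg3, Dsc3, Pkp1, Cdh1, F11r and Gja1 were higher in at least 3 (7.01%).

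By compartment, 5 of 21 measured members fell at dpc16 against NP in basal-like cells (background 14.7%) and Pkp3 and Cldn1 rose (7.07%). In spinous-like cells 8 of 25 fell (23.1%) and 0 rose (4.29%), in cycling-like cells 8 of 20 fell (13.9%) and 0 rose (5.83%), and in sebocyte-like cells 7 of 19 fell (11.5%) and 0 rose (6.58%). Spinous-like cells came from clusters 6 and 11, with 101 and 191 cells in NP, 104 and 56 at dpc16 and 30 and 105 at dpp42, so that most of the class lay in another cluster at dpc16. Cycling-like cells came from clusters 3 and 4, with 23 and 58 cells in NP, 66 and 64 at dpc16 and 17 and 40 at dpp42. Akr1c18 and Slpi were among the leading genes of cluster 3 and of the unnamed cluster 9. In cycling-like cells spinous markers summed to 2715, 994 and 1491 CPM and fibroblast markers to 117, 1008 and 221 CPM. In sebocyte-like cells sebocyte markers summed to 25100, 16382 and 25141 CPM and fibroblast markers to 75.3, 905 and 133 CPM. The part of these differences in the calls was not tested. At dpp42 against NP the calls were few. They were Gjb5 lower in basal-like cells (1 of 21, 3.35%; none higher, 3.3%), Cldn4 lower in spinous-like cells (1 of 24, 4.08%; none higher, 2.13%) and F11r lower in sebocyte-like cells (1 of 18, 2.01%; none higher, 3.34%). Epcam was lower in cycling-like cells (1 of 18, 3.78%; none higher, 3.31%), at 560, 326 and 329 CPM, so that its dpp42 value lay with dpc16. Bulge-like cells had Dsg2 and Cdh3 higher and Dsg1a lower (2 and 1 of 19, 5.77% and 4.26%). Granular-like cells had Gjb2 lower (1 of 24, 4.73%) and Cldn5, the endothelial claudin, higher (3.16%), at 0, 1.63 and 23.9 CPM. The 23 Cldn5 UMIs at dpp42 came from 3.51% of 57 cells, and lymphatic markers summed to 13.9, 29.4 and 280 CPM in the same cells.

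At dpp42 against dpc16, 6 of 20 members rose and 0 fell in basal-like cells (13.6% and 8.14%), 7 and 1 of 23 in spinous-like (19.7% and 5.67%), 3 and 3 of 25 in granular-like (15.8% and 7.28%), 6 and 0 of 18 in cycling-like (14% and 6.77%) and 5 and 0 of 19 in sebocyte-like cells (14.4% and 6.73%). In bulge-like cells 3 of 22 rose (9.46%) and 4 fell (10.3%). Gja1 was the member called in opposite directions in this contrast (1 of 28, background 2.29%). It was 1.52-fold, 1.56-fold and 1.6-fold higher at dpp42 in basal-like, spinous-like and sebocyte-like cells and went from 113 to 221 CPM in cycling-like cells. In bulge-like cells it was 2.12-fold lower (1.72 to 2.64).

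Dsg3 in basal-like cells fell from 79.5 CPM in NP to 21.7 at dpc16, 3.67-fold (2.03 to 6.96), and stood at 57.5 at dpp42. Dsc3 was 2.04-fold, 1.91-fold and 1.88-fold lower at dpc16 in basal-like, spinous-like and granular-like cells. Dsg1a was 1.73-fold lower in basal-like and 1.54-fold lower in spinous-like cells, and in granular-like cells its 1584 against 1108 CPM missed the size rule. In sebocyte-like cells Dsg1a read 46.7, 9.61 and 50.7 CPM beside the 47.3, 6.05 and 23.9 CPM of fibroblast-like cells, and the part of free RNA was not tested. F11r read 67.7, 27.9 and 60.1 CPM in spinous-like and 87.5, 39.2 and 66.6 CPM in granular-like cells, 2.43-fold (1.67 to 3.59) and 2.23-fold (1.57 to 3.21) lower at dpc16. F11r was also 3.59-fold lower at dpc16 in fibroblast-like cells (1.34 to 8.22), at 25.5, 7.1 and 37.5 CPM.

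In granular-like cells at dpc16 one desmocollin was higher and another lower. Of 25 measured members 3 rose (background 6.6%) and 6 fell (background 20%). Dsc2 read 6.54, 35.1 and 4.16 CPM, 5.37-fold higher at dpc16 than in NP (2.49 to 13.2), as Dsc1 was 4.81-fold lower (3.32 to 7.13). Cldn4 was 1.68-fold higher (1.46 to 1.93) and Cldn3 read 3.27, 13.9 and 13.5 CPM. Ctnna1, Ctnnb1 and Gja1 were 1.69-fold, 1.58-fold and 1.68-fold lower. Granular markers summed to 3459, 14773 and 11900 CPM and fibroblast markers to 66.2, 2070 and 88.4 CPM in these cells, and the part of either was not tested.

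Bulge-like cells, the follicle stem cell compartment, differed in another set of members at dpc16. Of 21 measured, 6 rose and 2 fell against NP (background 10.8% and 7.42%). Epcam read 264, 513 and 233 CPM, 1.94-fold higher at dpc16 (1.59 to 2.39), Perp 1282, 2242 and 1084 CPM, 1.75-fold (1.6 to 1.92), and Gja1 299, 461 and 217 CPM, 1.55-fold (1.27 to 1.89). Cldn1, Pkp3 and Gjb2 were 1.61-fold, 1.6-fold and 2.84-fold higher. In all 6 the dpc16 value was the highest of the 3 libraries. Dsg1a and Dsg3 were lower at dpc16. In these cells bulge markers summed to 8239, 12939 and 8861 CPM, upper follicle markers to 934, 1857 and 1066 CPM, infundibulum markers to 1768, 2609 and 1390 CPM and fibroblast markers to 139, 772 and 287 CPM. Their part was not tested.

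Against basal-like cells of the same library, bulge-like cells carried more Cdh3, Ctnnb1, F11r and Epcam in all 3 libraries. Of 21 members 4 were higher and 4 lower in NP (background 14.4% and 10.5%), 11 and 2 of 23 at dpc16 (25.9% and 11%) and 4 and 2 of 18 at dpp42 (14.3% and 8.54%). Cdh3, the cadherin of hair placodes and follicles, read 81, 89 and 124 CPM in bulge-like cells and was 2.8-fold (1.53 to 5.38), 2.43-fold (1.55 to 3.93) and 3.34-fold (1.75 to 7.03) the basal level. Dsg1a and Pkp1 were lower in bulge-like cells in all 3. Bulge-like cells came from 2 clusters, of which one held most of the Gja1: it read 444, 694 and 282 CPM in cluster 20 and 92.8, 171 and 141 CPM in cluster 0. Gja1 was called higher in cluster 20 in each library, and cluster 20 was 54 of 129, 117 of 239 and 54 of 149 bulge-like cells.

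**Figure D3:**
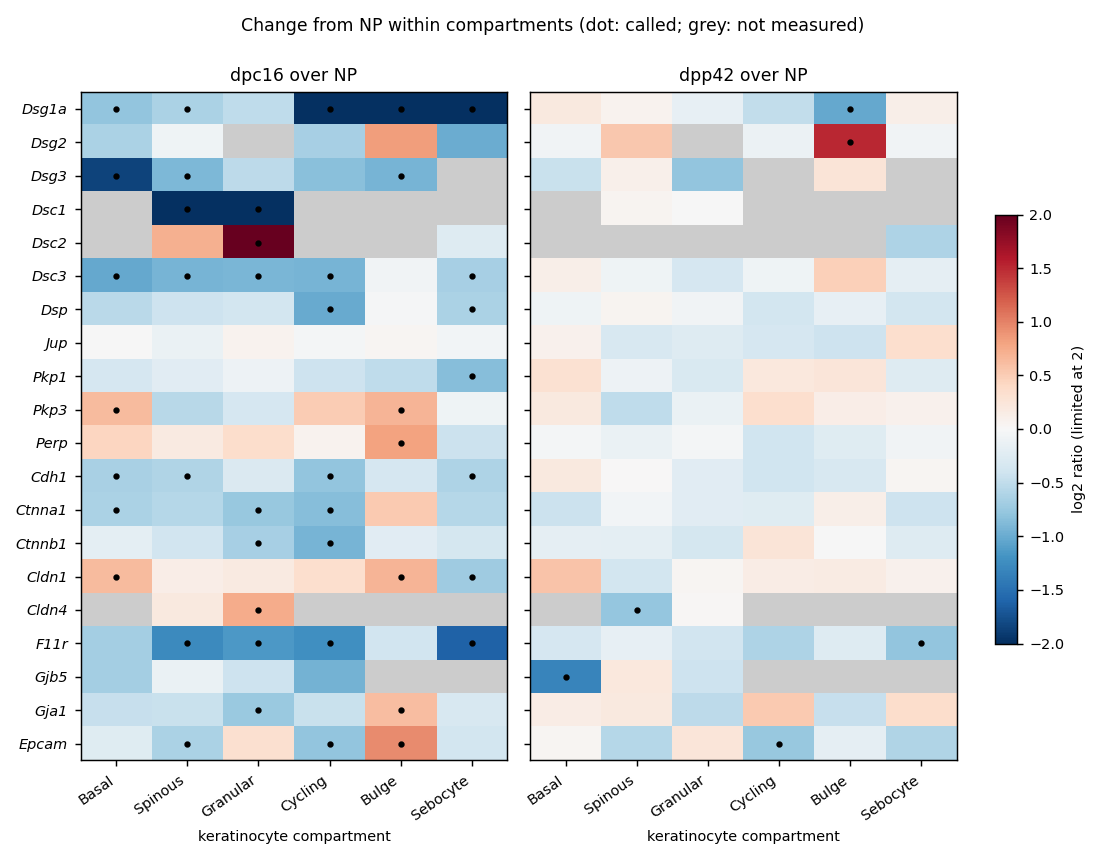
Log2 ratio of 20 members (vertical axis) in 6 keratinocyte compartments (horizontal axis) at dpc16 (left) and dpp42 (right) over NP, blue lower and red higher, colours limited at 2; black dots mark called values and grey cells were not measured. Dsg1a, Dsg3, Dsc3 and F11r are blue across several compartments at dpc16, whereas Epcam, Gja1 and Perp are red in bulge-like cells.

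The appendages had profiles of their own. Sebocyte-like cells were low in most of the module: against basal-like cells 14 of 20 measured members were lower in NP, 16 of 23 at dpc16 and 12 of 17 at dpp42, where 24.1%, 23.3% and 19.2% of all genes were lower. Dsp read 208, 135 and 161 CPM there, 3.45-fold, 3.66-fold and 4.19-fold under basal-like cells. Dsc2 was an exception, at 27.1, 23.1 and 17.7 CPM against 3.61, 0 and 3.38 in basal-like cells, called in NP and dpc16. The members called higher than in basal-like cells were Dsc2 and Cldn1 in NP (2 of 20, 23.3%), Dsc2, Gjb2 and Gja1 at dpc16 (3 of 23, 23.4%) and Gja1 at dpp42 (1 of 17, 23%). Infundibulum-like cells, of the follicle's mouth, could be compared at dpc16, where they numbered 146. Against spinous-like cells 6 of 24 measured members were higher (background 13.5%) and 3 lower (11.8%). Epcam read 900 against 99.9 CPM (9.01-fold, 7.51 to 10.9), Cldn4 366 against 89.7 (4.08-fold) and Cldn1 594 against 186 (3.2-fold), while Gja1 read 13 against 93.8 and Gjb5 10.1 against 111.

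**Figure D4:**
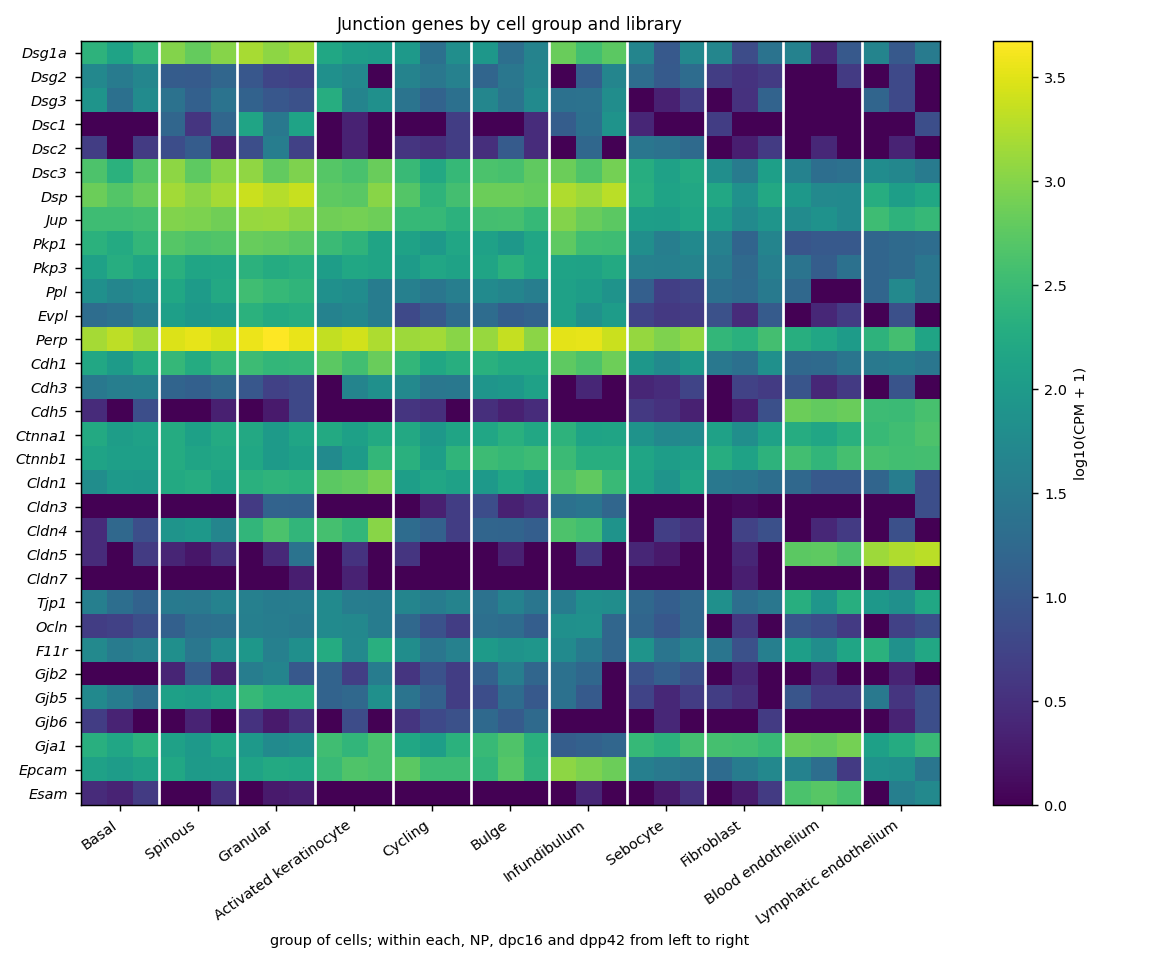
Heat map of the level of all 32 members (vertical axis) in 11 classes of cells (horizontal axis, 3 columns per class for NP, dpc16 and dpp42), coloured by log10 of CPM plus 1. Cdh5, Cldn5 and Esam are bright in the endothelial columns, most desmosomal genes are dim in sebocyte-like, fibroblast-like and endothelial columns, and Cldn7 is dark throughout.

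Fibroblast-like cells, named by their markers, carried Gja1 at 393, 369 and 297 CPM, not called between stages. Of 16 measured members 8 were lower at dpc16 than in NP (background 15.7%) and 0 higher (6.12%), and 10 of 16 were higher at dpp42 than at dpc16 (20.5%) and 0 lower (4.73%). The class came from different clusters by stage: cluster 19 held 2, 262 and 0 of its cells and cluster 22 held 13, 271 and 23. Of the 8, Dsg1a, Dsc3, Dsp, Jup and Pkp1 are desmosomal genes at low levels in these cells, such as Dsp at 156, 72.2 and 164 CPM. Keratinocyte-like cells were 73.6%, 38.1% and 61.5% of the cells beside them, and the part of free RNA was not tested. Ctnna1 read 127, 64.1 and 126 CPM and Tjp1 69.1, 20 and 27.3 CPM, and Tjp1 was also lower at dpp42 than in NP (1 of 13, 7.2%), where Dsc3 was higher (8.36%).

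The last comparison concerned endothelium. Against fibroblast-like cells, blood endothelium-like cells were higher in 7 of 12 members in NP (19.8%), 8 of 18 at dpc16 (28.4%) and 8 of 13 at dpp42 (23.7%), and lower in 0, 2 and 4 (19.3%, 19% and 21.3%). Cdh5, Ctnnb1, Cldn5, Tjp1, F11r, Gja1 and Esam were higher in all 3. Blood endothelium-like cells numbered 41, 128 and 89 and lymphatic endothelium-like cells 19, 141 and 34, so NP values of the latter are descriptive. Cdh5 (VE-cadherin, the endothelial adherens junction cadherin) read 703, 629 and 685 CPM in blood and 330, 319 and 396 CPM in lymphatic cells, 1.97-fold lower in lymphatic cells at dpc16 (1.68 to 2.33) and 1.73-fold at dpp42 (1.29 to 2.34). Cldn5, the main endothelial claudin, went the other way, at 554, 583 and 442 CPM in blood and 1363, 1730 and 1992 CPM in lymphatic cells, 2.97-fold and 4.5-fold higher in lymphatic cells at dpc16 and dpp42. Thinned to 1000 UMIs, Cldn5 was seen in 17.1%, 25% and 27% of blood (48.8%, 50% and 51.7% before thinning) and 84.2%, 80.1% and 76.5% of lymphatic cells (94.7%, 99.3% and 97.1%), against 0%, 0.0924% and 0% of fibroblast-like cells. Median depth was 2450, 4160 and 3101 UMIs in blood and 2833, 4165 and 3133 in lymphatic cells.

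Esam (an endothelial immunoglobulin adhesion molecule) read 430, 520 and 400 CPM in blood and 0, 38 and 52.8 in lymphatic cells. Gja1 read 703, 637 and 798 CPM in blood and 120, 183 and 310 in lymphatic cells, 3.48-fold and 2.57-fold lower in lymphatic cells at dpc16 and dpp42. Jup read 57.9, 72.7 and 54.9 CPM in blood and 345, 233 and 290 CPM in lymphatic cells, 3.21-fold (2.31 to 4.55) and 5.29-fold (2.96 to 9.87) higher. Ctnna1 read 190, 149 and 216 CPM in blood and 300, 353 and 449 in lymphatic cells. In all, 9 of 17 measured members were higher and 3 lower in lymphatic cells at dpc16 (background 22.3% and 15.2%), and 4 and 3 of 11 at dpp42 (15.8% and 16.7%). Of the 9, Dsc3, Ppl, Perp, Cldn1 and Epcam are epithelial genes. Their lymphatic values at dpc16 (48.8, 52.9, 373, 35.3 and 66.5 CPM) lie beside 32.3, 18.4, 214, 25.5 and 34.2 CPM in fibroblast-like cells. Dsp was called higher in lymphatic cells at both dpc16 and dpp42. It read 113 and 152 CPM there, against 52.2 and 54.9 CPM in blood and 72.2 and 164 CPM in fibroblast-like cells.

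Across stages few endothelial members were called. In blood endothelium-like cells 1 of 11 measured fell at dpc16 against NP (background 10.2% lower and 5.72% higher), namely Tjp1, at 198, 85.4 and 200 CPM, 2.33-fold lower (1.37 to 3.83). At dpp42 against NP 1 of 11 fell, Perp (background 3.44%; none higher, 2.62%), an epithelial gene. At dpp42 against dpc16, 3 of 12 rose (13.1%; none lower, 8.38%), Ctnnb1, Tjp1 and F11r, the last at 116, 61.6 and 145 CPM. Tjp1 and F11r were also higher at dpp42 than at dpc16 in lymphatic cells, 2.19-fold and 2.24-fold, among 3 of 16 that rose there (9.99%), with 1 lower (7.03%). In lymphatic cells fibroblast markers summed to 4478 CPM at dpc16 and 290 at dpp42, and infundibulum markers to 2329 and 343 CPM, and their part was not tested. Haemoglobin genes in blood endothelium-like cells summed to 8.27, 623 and 6692 CPM, and their part was not tested.

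**Figure D5:**
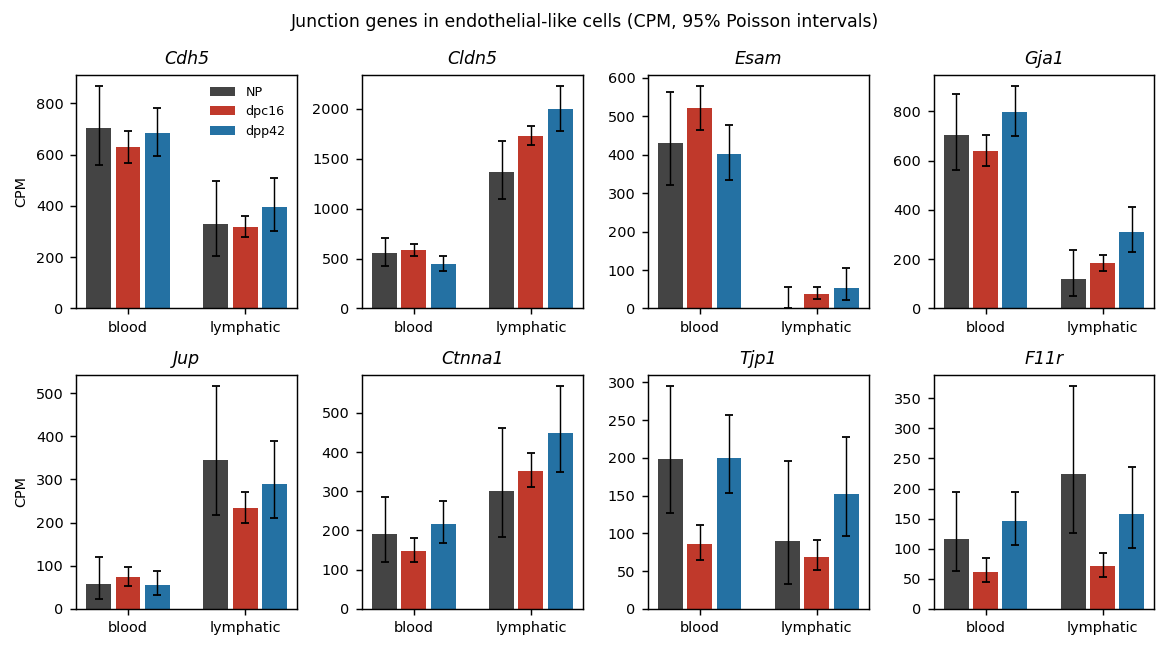
CPM (vertical axes, linear, from 0) of 8 members in blood and lymphatic endothelium-like cells of the 3 libraries, bars being class sums and error bars 95% Poisson intervals. Cdh5, Esam and Gja1 are higher in blood, Cldn5, Jup and Ctnna1 in lymphatic cells, and Tjp1 in blood is low at dpc16 (85.4 CPM).

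Of the 2 unnamed clusters with at least 30 cells in each library, cluster 13 (70, 255 and 65 cells) was compared and cluster 9 was not, a choice made with its values known. Its leading genes were the haemoglobin genes Hbb-bs, Hbb-bt, Hba-a1 and Hba-a2, and Cldn1 was among its 10 leading genes. At dpc16 against NP 5 of 22 members rose (6.14%) and 0 fell (9.26%): Jup, Perp, Cldn1, Cldn4 and Epcam, with Cldn1 at 328, 694 and 343 CPM. At dpp42 against NP 4 of 15 rose (5.03%) and 0 fell (2.9%), and against dpc16 5 of 22 rose (10.9%) and 2 fell (4.86%). Epcam stood at 352, 606 and 566 CPM, so its dpp42 value lay nearer dpc16 here.

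The remaining members were scarce. Gjb6 (connexin 30) read 17.1, 10.5 and 17.5 CPM in bulge-like cells, from 8, 9 and 9 UMIs. Cldn7 had 0, 1 and 1 UMI in keratinocyte-like cells, and Cldn3 was at most 26 CPM in any class of at least 30 cells, in infundibulum-like cells at dpc16.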

How the data were processed

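Single-cell RNA of 3 libraries was measured, 1 each for NP, dpc16 and dpp42, grouped by their labels. Values are raw counts of UMIs, as deposited, which the authors made with Cell Ranger 2.2.0 on mm10, per the submitters' processing notes. For the annotation release and the cell-calling rule, nothing is given in the sources used here. Barcodes with at least 200 genes and at most 10% mitochondrial UMIs were kept (1289, 3652 and 1081 of 1330, 4122 and 1196), holding 5905715, 19711100 and 5432269 UMIs. Scrublet marked 1, 2 and 1 cells, too few to have worked, so no doublets were removed.

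Cells were clustered with scanpy 1.11.5 (2000 variable genes without the members and other junction genes, 30 components, 15 neighbours, Leiden resolution 1, seed 0) into 33 clusters. A cluster was named where at least 3 markers of 1 of 27 lists were in at least 10% of its cells and above 1.4-fold. The fold was taken over the mean of the clusters ranked below the median for that marker, not over all other clusters. The 10 leading genes of the cluster also had not to go against the name. Names are rebuilt from these markers and may differ from the study's own. Clusters 1, 9, 13 and 29 stayed unnamed. UMIs were summed per class and library and given as CPM. Levels carry 95% exact Poisson intervals, ratios exact conditional binomial ones and shares of cells Clopper-Pearson ones. A count of 0 was set at a limit of 3 counts per library. Classes of under 30 cells entered no comparison in the main setting. The alternatives allowed classes down to 10 cells, and the smallest granular-like class among them held 14 cells, in NP. The ratio code was tested on simulated data.

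The members and gene lists were chosen with earlier results of these data known. A member was given in every library where it reached 20 CPM and was called in a comparison, or belongs to the endothelial or fibroblast set; others are given by range and count, and of other junction genes up to 4 per direction with the highest CPM, of which 1 is not reported here. Alternatives changed the cell filters, clustering, naming, scaling, weights, minimums and fold size. Positions are from GENCODE M21 and upstream windows from RefSeq, both on GRCm38.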

Additional observations from a re-analysis of the deposited data

Results flagged for a closer look

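With 1 library per stage, the differences between compartments below were not tested. They were picked out because counting intervals put the same gene higher in 1 compartment and lower in another under 1 contrast. At dpc16 over NP 3 of 27 measured members met this rule, beside 3.19% of all genes measured in any compartment. At dpp42 over dpc16 it was 1 of 28, beside 2.29%. Both shares include genes measured in only 1 compartment, which could not meet the rule. For Cldn1 the log2 ratio of dpc16 over NP was 0.64 in basal-like and 0.68 in bulge-like cells and -0.72 in sebocyte-like cells. For Gja1 it was 0.62 in bulge-like and -0.75 in granular-like cells. For Epcam it was 0.95 in bulge-like, -0.63 in spinous-like and -0.78 in cycling-like cells. At dpp42 over dpc16, the log2 ratio of Gja1 was 0.61 in basal-like, 0.64 in spinous-like, 0.97 in cycling-like and 0.68 in sebocyte-like cells, and -1.08 in bulge-like cells.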

How the results depend on the processing

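No paired analysis was possible because each stage has 1 library and the labels carry no replicate number. Of the counts of called members recomputed under each alternative, 99 stayed within 1.5 times the reported count and 33 did not. For single members the log2 ratio was compared, not the call. Of these values, 708 stayed inside the counting interval of the main setting, 142 moved outside it and 4 reversed in sign. A value inside that interval can still lose its call, as under the 2-fold size.

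For granular-like over basal-like cells, thinning to 1000 UMIs left 1 of 4 lower in NP, 10 of 17 higher and 0 of 4 lower at dpc16, and 7 of 15 higher and 1 of 2 lower at dpp42. At dpp42 the number lower was 1 with at most 5% mitochondrial UMIs and 4 with no minimum. For dpc16 over NP in keratinocyte-like cells, 1 member was higher. That number was 2 with at most 5% mitochondrial UMIs, with junction genes in the clustering, with cells classed by their own markers, when thinned (Cldn1 and Cldn4, not Dsc2) and with no minimum. It was 3 with at least 500 genes, at resolution 2, as a mean of per-cell CPM, when centred and with equal compartment weights, and 4 with clusters 1, 9 and 13 added, an alternative chosen after seeing the data. The 11 lower became 5 at a 2-fold size and 5 with equal weights. For dpp42 over NP, 0 and 0 became 2 higher and 1 lower when thinned, 3 and 2 as a mean of per-cell CPM, 2 higher with no minimum and 1 lower with at most 5% mitochondrial UMIs. For dpp42 over dpc16, the 8 higher became 5 with at most 5% mitochondrial UMIs, 5 when centred, 2 at a 2-fold size and 3 with equal weights; the 2 lower became 1 when thinned (Cldn4, neither Dsc2 nor Gjb2), 5 when centred and 1 at a 2-fold size.

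With cells classed by their own markers, the granular over basal log2 ratio of Dsc3 was -0.1863 in NP and -0.0882 at dpp42, from 14 and 21 granular-like cells. The granular over basal log2 ratio of Dsg2 at dpc16 was 0.1375 when thinned, and the log2 ratio of Gjb5 for dpp42 over dpc16 was -0.005194 with equal weights. The cause was not tested. Counting error is the only error that can be stated, and members of few UMIs (Cldn3, Cldn7, Gjb6) allow no comparison in most classes.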
